A study of Mus musculus with 10 samples.

Results

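Krüppel-like factors are zinc finger transcription factors. Of the family, 10 genes (Klf2, Klf3, Klf4, Klf5, Klf6, Klf7, Klf9, Klf10, Klf11 and Klf13) are described here among the 24704 named genes measured. They were chosen by name, with earlier results of these data known. RNA came from primary liver sinusoidal endothelial cells (LSEC), the fenestrated endothelium of the hepatic capillaries. The knockout group, labelled Gata4-LSEC-KO, comprised 5 samples from mice in which the Clec4g-icre transgene (C57BL/6N-Tg(Clec4g-icre)1.1Sgoe) was crossed to a floxed Gata4 allele (STOCK Gata4tm1.1Sad/J), and the control group comprised 5 samples from siblings, labelled WT. Which alleles the siblings carried, and the age and sex of the mice, are not given in the labels. Each sample pooled 3 mice, so the spread between samples is that between pools, and CD146 beads were used to take the cells from a nonparenchymal fraction. Recombination follows a driver active in sinusoidal endothelium and cannot be assumed in other cells of the preparation.

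All Krüppel-like factors share a C-terminal DNA-binding region of 3 zinc fingers that recognises GC-rich sequences and CACCC boxes, and differ in the N-terminal part, which recruits activators or repressors. In endothelium, KLF2 and KLF4 are known as factors induced by laminar flow through the MEKK3, MEK5, ERK5 and MEF2 cascade, and they maintain an anticoagulant and anti-inflammatory state. Several other family members are immediate responders to serum, TGF-beta, glucocorticoids or tissue injury, and their transcripts can also rise while tissue is being dissociated.

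Of the 10 members, 8 (all but Klf5 and Klf10) matched RefSeq's promoter sequences of the mouse assembly GRCm38.p6, of which the 250 bases before the gene start were used. 4 of them are printed 5′ to 3′ along the gene's strand, those of Klf2 and Klf3, whose values ran together over the arrays, and those of Klf6 and Klf7, whose groups did not overlap. Capitals mark CACCC boxes, read as CACCC or its complement GGGTG, and a match to the MEF2 consensus. Klf2 lies at chr8:72318812-72319061 (plus strand), Klf3 at chr5:64803271-64803520 (plus), Klf6 at chr13:5861239-5861488 (plus) and Klf7 at chr1:64121390-64121639 (minus).
Klf2: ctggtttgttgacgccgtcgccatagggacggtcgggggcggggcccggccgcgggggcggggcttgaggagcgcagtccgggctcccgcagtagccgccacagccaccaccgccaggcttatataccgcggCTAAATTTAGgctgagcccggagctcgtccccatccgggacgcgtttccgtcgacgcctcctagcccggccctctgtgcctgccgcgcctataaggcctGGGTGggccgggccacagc
Klf3: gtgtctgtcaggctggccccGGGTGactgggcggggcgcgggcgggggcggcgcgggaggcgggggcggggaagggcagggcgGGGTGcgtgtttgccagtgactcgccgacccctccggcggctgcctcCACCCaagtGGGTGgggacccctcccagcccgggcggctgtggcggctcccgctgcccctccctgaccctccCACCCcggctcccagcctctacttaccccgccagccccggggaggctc
Klf6: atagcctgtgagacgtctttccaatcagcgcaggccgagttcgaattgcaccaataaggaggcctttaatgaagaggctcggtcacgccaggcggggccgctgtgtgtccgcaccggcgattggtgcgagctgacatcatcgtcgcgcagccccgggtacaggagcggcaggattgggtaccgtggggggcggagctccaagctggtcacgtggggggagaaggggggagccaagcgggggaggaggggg
Klf7: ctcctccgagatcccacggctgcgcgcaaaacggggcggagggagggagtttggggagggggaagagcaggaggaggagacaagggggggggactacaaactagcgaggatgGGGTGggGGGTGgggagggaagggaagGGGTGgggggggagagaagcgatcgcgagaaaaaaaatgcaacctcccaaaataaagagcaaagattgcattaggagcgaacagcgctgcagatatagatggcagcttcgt
The Klf2 window holds the MEF2 match, 118 to 109 bases before the start, and 1 CACCC box. A MEF2 match was found on either strand in 1.69% of 32841 mouse promoter windows of this length. The Klf3 window holds 5 CACCC boxes, the Klf7 window 3 and the Klf6 window 0, and 52% of all windows hold at least 1. The letters GATAA, a form of a GATA factor site, were searched on both strands. They were found in 0 of the 8 member windows, against 22.6% of all windows. The shorter letters GATA, which the printed Klf7 window holds, were not searched. The member windows were 59.2% (Klf7) to 78.4% (Klf3) GC, and the comparison was not matched for GC content. The motifs did not overlap one another in the printed windows. A match describes the letters in this window and not a bound site.

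No Krüppel-like factor transcript passed the test between knockout and control. By limma, 0 of 10 members had an adjusted p under 0.05 (2.14% of all genes did, 1.3% higher and 0.846% lower), while 4 of 10, Klf2, Klf5, Klf6 and Klf7, were under 0.05 before adjustment (13.6% of all genes). Of these 4, Klf5 and Klf6 read higher in the knockout and Klf2 and Klf7 lower. Knockout and control arrays were fully separated for 2 of 10, Klf6 and Klf7, as they were for 4.93% of all genes. The median log2 fold change of the 10 was -0.02, as it was for all genes (-0.02), and 6 of the 10 were below 0, against 55.2% of all genes.

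**Figure D1:**
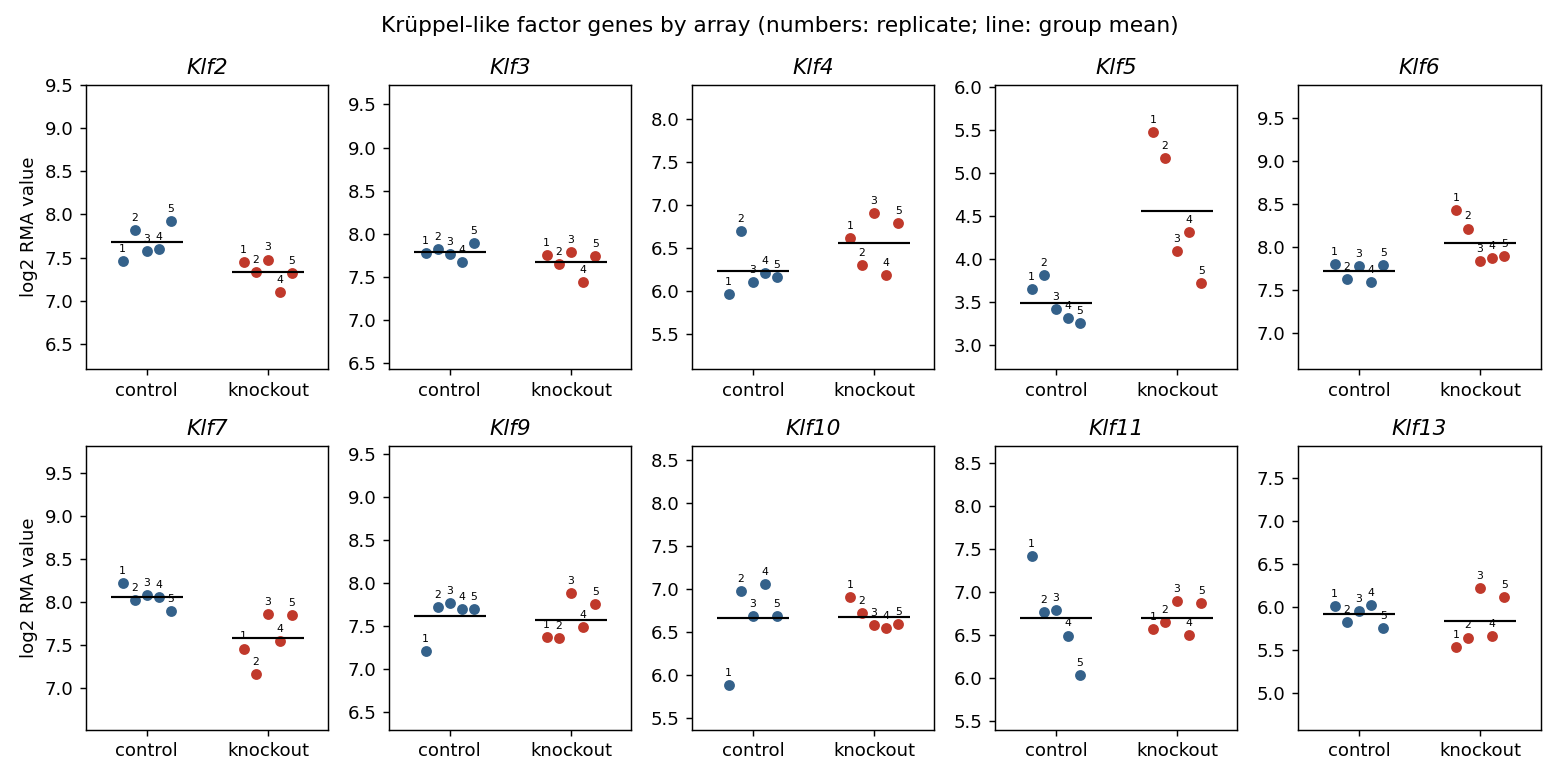
Log2 RMA value (y axis, each panel spanning the same number of log2 units) of each Krüppel-like factor gene in the 5 control arrays (blue) and the 5 knockout arrays (red), numbered by replicate, with a line at the group mean. Klf6 and Klf7 are the members without overlap between groups, Klf5 spreads from 3.73 to 5.47 in the knockout, and Klf10 and Klf11 spread most among the controls.

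Some facts of the arrays bear on these values. Control replicate 1 stood apart, correlating with the others at 0.920 to 0.944 across genes. All 12 markers of sinusoidal endothelium were above the array median of 3.71 in every array while 4 of the 12 fell in the knockout (list mean 10.90 ± 0.21 against 11.20 ± 0.11, SD, n = 5). Markers of other cells were also present. The mean of 9 hepatocyte markers ranged from 6.9 to 8.6 in the knockout and from 7.2 to 7.7 in the control arrays. Kupffer cell markers (10 genes) gave 7.0 to 8.1 and 5.3 to 8.2. Stellate cell markers (10 genes) gave 6.2 to 8.0 and 5.3 to 7.2. Both of these means were lowest in control replicate 1. Of these lists, 1 hepatocyte marker fell and no other marker passed. By direction alone, 6 of 9 hepatocyte, 9 of 10 Kupffer cell and 9 of 10 stellate cell markers read higher in the knockout. An unadjusted p under 0.05 by limma was found for 3, 0 and 4 markers of these lists (13.6% of all genes). The part of these cells in the results was not tested. The mean of 10 neutrophil and monocyte markers ranged from 4.58 to 5.98 in the knockout and from 3.33 to 4.00 in the control arrays, and 6 of the 10 rose. The mean of 7 B and plasma cell markers ranged from 3.81 to 4.28 and from 3.27 to 3.55, and 2 of the 7 rose, Ebf1 and Jchain. The other 5 did not pass, and only 1 of the 7 was above the array median in every array. A fit with the neutrophil and monocyte mean as a covariate is given below, and the B and plasma cell mean was not fitted. Neither of these list means overlapped between the groups, so such a fit cannot tell these cells apart from the knockout. The mean of 7 cholangiocyte markers ranged from 4.51 to 6.57 and from 3.69 to 4.60, with all 7 higher in the knockout and 0 past the threshold by limma (6 at an unadjusted p under 0.05). In such bulk samples a change in the share of a cell type and a change in RNA per cell cannot be told apart. Gata4 itself, the deleted gene, read 8.59 ± 0.24 in knockout arrays and 8.71 ± 0.15 in controls (SD, n = 5; adjusted p = 0.742 by limma), and where its probes lie was not given, so this value does not check the labels.

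Klf2, the flow-induced factor that drives endothelial nitric oxide synthase and thrombomodulin, stood at 7.45, 7.33, 7.48, 7.10 and 7.32 in knockout replicates 1 to 5 and at 7.46, 7.82, 7.58, 7.60 and 7.92 in control replicates 1 to 5. Of the knockout arrays, 4 lay below every control, and the groups overlapped only through control replicate 1 and knockout replicate 3. The log2 fold change was -0.34 ± 0.12 (SE), or 1.27-fold lower (limma, adjusted p = 0.209 and unadjusted p = 0.0150). Leaving out control replicate 1 gave -0.40, the lowest of the values with 1 array left out, and the adjusted p stayed at or above 0.111 in those fits.

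Klf4, its close relative in flow responses and a factor of monocyte and epithelial differentiation, went the other way. It read 6.62, 6.30, 6.91, 6.18 and 6.79 in the knockout and 5.96, 6.70, 6.10, 6.21 and 6.17 in the control arrays. Control replicate 2 lay within the upper knockout values, and the other 4 controls lay below knockout replicates 1, 2, 3 and 5. The difference was 0.33 ± 0.18 on the log2 scale (95% interval -0.05 to 0.72; adjusted p = 0.461 by limma). Control replicate 2 also had the highest mean of the dissociation and immediate early genes among the controls, 7.64, where the other 4 ranged from 6.74 to 7.23. A fit with that list mean as a covariate is given with the dissociation genes below, and a cause was not tested. Without control replicate 2 the Klf4 difference was 0.45.

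The cascade above KLF2 and KLF4 did not separate the groups. The list held 15 genes, from the flow sensor channel Piezo1 to the MEF2 factors, the class II deacetylases and the cerebral cavernous malformation (CCM) proteins. Of these, 0 passed by limma. Against 13.6% of all genes, 2 of the 15 were under 0.05 before adjustment. These were Heg1, the receptor that anchors the CCM complex, at 0.52 ± 0.18 (adjusted p = 0.197) and Map3k3, which encodes MEKK3, at -0.25 ± 0.12 (adjusted p = 0.365). The list's median was 0.01.

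Genes known as targets of KLF2 and KLF4 in endothelium gave a mixed picture for the induced ones and a one-sided one for the repressed ones. Of 11 genes known to be induced, 1 rose, S1pr1, the sphingosine-1-phosphate receptor of endothelium, at 0.59 ± 0.11 (8.70 ± 0.19 against 8.11 ± 0.09, SD, n = 5; adjusted p = 0.0205 by limma). The other 10 did not pass, 5 above and 5 below 0, among them the nitric oxide synthase gene Nos3 at -0.21 ± 0.15 and the thrombomodulin gene Thbd at 0.51 ± 0.25. Before adjustment, 4 of the 11 were under 0.05 by limma, in both directions, against 13.6% of all genes. S1pr1 no longer passed when control replicate 4 or 5 was left out (adjusted p of at most 0.0581).

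Of 8 genes known to be repressed by KLF2 or KLF4, 7 were above 0, and 6 had an unadjusted p under 0.05 by limma (13.6% of all genes). Only Sele, the cytokine-induced adhesion molecule E-selectin, rose after adjustment, at 1.03 ± 0.22 (4.32 ± 0.36 against 3.29 ± 0.42, SD, n = 5; adjusted p = 0.0389). The control values of Sele (2.88 to 3.92) and of F3 (3.32 to 3.92) lie around the array median of 3.71. Their differences therefore describe array values rather than amounts of RNA. Of the 8 genes, 6 were above that median in every array. Sele passed in 2 of the 10 fits with 1 array left out, those without knockout replicate 2 or control replicate 1. Its adjusted p reached 0.103 in the others. The vasoconstrictor gene Edn1 (1.32 ± 0.37, adjusted p = 0.108), the tissue factor gene F3 (0.91 ± 0.27, adjusted p = 0.132) and Icam1, an adhesion molecule for leukocytes (0.48 ± 0.13, adjusted p = 0.0884), did not pass. Edn1 passed without knockout replicate 1 (1.63, adjusted p = 0.0284 by limma), and F3 was at -0.08 with the cholangiocyte list mean, given with Klf5, as a covariate. These 3, with Nos3 and Thbd, were named after their values were seen. The list's median was 0.65, against -0.02 for all genes. The list was chosen with earlier results of these data known, so its counts and median only describe these arrays. Nor was the shift particular to this list, since 11 of 13 genes of the TGF-beta list, given below, were also above 0. The dissociation and immediate early list moved the same way, with a mean of 7.41 ± 0.28 for knockout and 7.09 ± 0.36 for control arrays (SD, n = 5). A fit with that list mean as a covariate was among the alternatives, and the cause of these values was not tested.

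**Figure D2:**
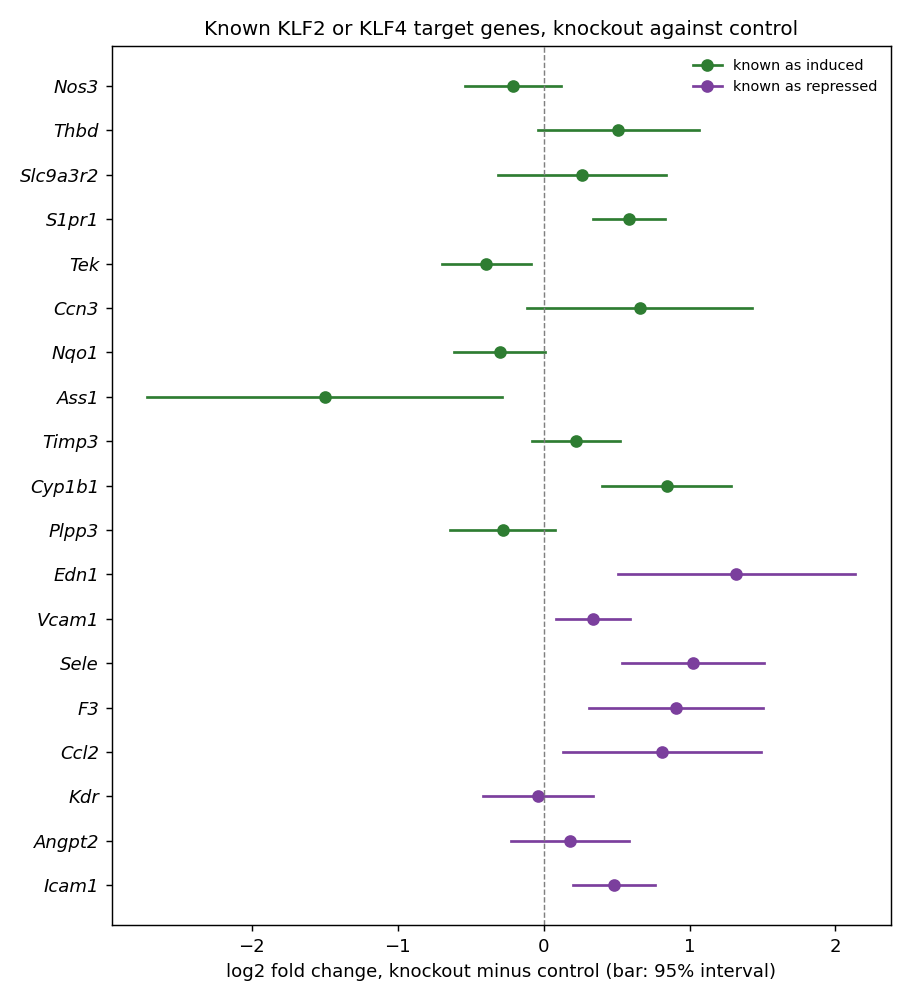
Log2 fold change, knockout minus control (x axis, log2 units), with its 95% interval for genes known as induced (green) or repressed (purple) by KLF2 or KLF4 in endothelium. The induced genes lie on both sides of 0, and 7 of the 8 repressed genes lie above it.

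Klf6, an injury and immediate early response factor known to act on endoglin and TGF-beta genes in vascular cells, was higher in every knockout array. It read 8.44, 8.22, 7.84, 7.87 and 7.89 in the knockout and 7.80, 7.63, 7.78, 7.60 and 7.79 in the control arrays. The groups were separated by a gap between 7.80 and 7.84, and knockout replicates 1 and 2 stood above the other 3. The log2 fold change was 0.33 ± 0.13 (SE), or 1.26-fold, and limma gave an adjusted p of 0.283. Leaving out both of these arrays, an alternative chosen after the data were seen, brought it to 0.15 ± 0.11.

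Klf7, a factor of neuronal and progenitor cell gene expression, was lower in every knockout array. The values were 7.46, 7.16, 7.85, 7.55 and 7.85 in the knockout and 8.22, 8.02, 8.08, 8.05 and 7.89 in the control arrays. Knockout replicates 3 and 5 came closest to the controls, and knockout replicate 2 was the lowest. At -0.48 ± 0.14 (SE), or 1.40-fold lower, it had an adjusted p of 0.124 by limma, and with 1 array left out the adjusted p lay between 0.0862 and 0.249. Without knockout replicates 1 and 2 the difference was -0.31 ± 0.13.

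Klf5, a factor of epithelial proliferation and of vascular smooth muscle remodelling, had the largest difference of the 10. It read 5.47, 5.18, 4.10, 4.32 and 3.73 in the knockout and 3.65, 3.81, 3.42, 3.31 and 3.26 in the control arrays. Knockout replicates 1 and 2 were far above the others, and knockout replicate 5 fell below control replicate 2. The difference was 1.07 ± 0.30 (SE) on the log2 scale, and limma's adjusted p was 0.108. The control values lie around the array median of 3.71, so the 2.10-fold difference describes array values rather than amounts of RNA. Klf5 passed without knockout replicate 5 (1.28 ± 0.27, adjusted p = 0.0391), and with all arrays given quality weights (1.14 ± 0.27, adjusted p = 0.0345).

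Klf5 followed the markers of bile duct cells from array to array. The cholangiocyte list mean was 6.10, 6.57, 4.81, 5.39 and 4.51 in knockout replicates 1 to 5 and 3.89, 4.60, 4.14, 3.69 and 3.77 in control replicates 1 to 5, so both were highest in knockout replicates 1 and 2, lowest among the knockouts in replicate 5 and highest among the controls in replicate 2. Epcam, an epithelial adhesion molecule of bile ducts that was named after its values were seen, ranged from 4.67 to 7.48 in the knockout and from 3.29 to 5.11 in the control arrays. With the cholangiocyte list mean as a covariate the Klf5 difference was -0.04 ± 0.23 (adjusted p = 0.994 by limma). Klf6 had its highest values in the same 2 arrays, and Klf7 and Klf13 had their lowest knockout values there. With that covariate Klf6 was at 0.04 ± 0.18 and Klf7 at -0.08 ± 0.17, neither past the threshold. The list mean was itself higher in the knockout, with overlap only between knockout replicate 5 and control replicate 2. These fits therefore cannot tell bile duct cells apart from the knockout, and the part of these cells was not tested.

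**Figure D3:**
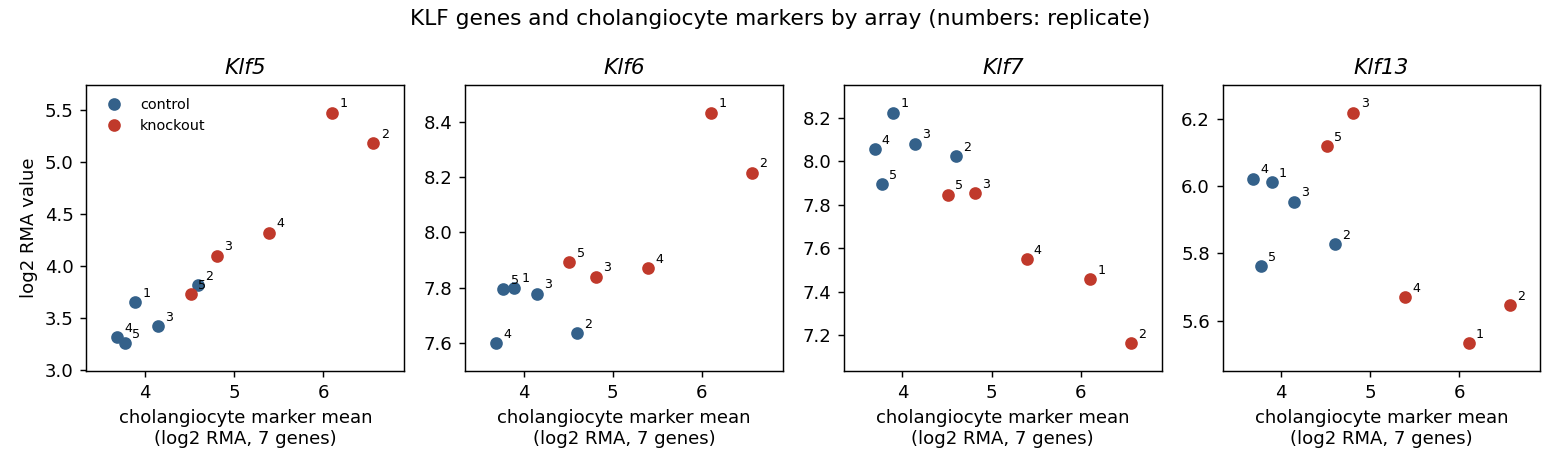
Log2 RMA value (y axis) of Klf5, Klf6, Klf7 and Klf13 against the mean of 7 cholangiocyte markers (x axis, log2 RMA) in each of the 10 arrays, numbered by replicate (blue, control; red, knockout). Klf5 rises along the marker mean in both groups, while the knockout arrays with the highest marker mean, replicates 1 and 2, hold the lowest values of Klf7 and, with replicate 4, of Klf13.

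Klf3, a repressor that recruits the corepressor CtBP, was at 7.75, 7.65, 7.78, 7.43 and 7.74 in the knockout and 7.77, 7.82, 7.77, 7.67 and 7.89 in the control arrays. Knockout replicates 2 and 4 lay below every control, and the other 3 lay among them. The log2 fold change was -0.11 ± 0.10 (SE; 95% interval -0.33 to 0.11; adjusted p = 0.680 by limma). Like Klf2, it was lowest in knockout replicate 4 and highest in control replicate 5.

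Klf9 and Klf13 belong to the group of family members that recruit the SIN3 corepressor, and Klf9 is a target of glucocorticoid and thyroid hormone receptors and of the circadian clock. Klf9 read 7.37, 7.36, 7.88, 7.49 and 7.75 in the knockout and 7.20, 7.72, 7.76, 7.69 and 7.69 in the control arrays, a difference of -0.04 ± 0.15 (95% interval -0.36 to 0.28; adjusted p = 0.933 by limma). Control replicate 1 was the lowest of all 10, and without it the difference was -0.15. Klf13, a regulator of lymphocyte gene expression, read 5.53, 5.65, 6.22, 5.67 and 6.12 against 6.01, 5.83, 5.95, 6.02 and 5.76. Knockout replicates 3 and 5 lay above all controls and the other 3 knockouts below them, and the difference was -0.08 ± 0.15 (95% interval -0.40 to 0.24).

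Among 8 genes of the glucocorticoid response, Cdkn1a, the cyclin-dependent kinase inhibitor p21, rose by 1.23 ± 0.11 on the log2 scale (7.32 ± 0.12 against 6.08 ± 0.15, SD, n = 5; adjusted p = 0.000191 by limma) and 7 did not pass. Cdkn1a is also a known target of p53 and of several Krüppel-like factors, KLF4 and KLF6 among them. Of 16 clock genes, Bhlhe40, a repressor within the clock, rose (0.70 ± 0.14, adjusted p = 0.0220 by limma), and 15 did not pass. It no longer passed when knockout replicate 1 or 2, or control replicate 2 or 4, was left out (adjusted p of at most 0.0624). The list medians were 0.13 and -0.05.

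Klf10 and Klf11 are the TGF-beta inducible early genes of the family, and both act as repressors through SIN3. Klf10 read 6.91, 6.73, 6.59, 6.55 and 6.60 in the knockout arrays and 5.89, 6.98, 6.69, 7.06 and 6.69 in the control arrays. Control replicate 1 was lowest by far, and without it the direction turned, from 0.01 ± 0.20 to -0.18 ± 0.12 (adjusted p = 0.558 by limma). Klf11 read 6.57, 6.65, 6.89, 6.50 and 6.87 against 7.41, 6.76, 6.79, 6.49 and 6.03. Here control replicate 1 was the highest of all and control replicate 5 the lowest, and the knockout arrays lay between them. Its difference was -0.00014 ± 0.21 (95% interval -0.47 to 0.47), and 0.18 without control replicate 1.

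In the TGF-beta list, 2 of 13 genes rose and 11 did not pass. Skil, which encodes the SMAD corepressor SnoN, was at 0.84 ± 0.18 (adjusted p = 0.0327 by limma), and Smad3, the signal transducer, at 0.61 ± 0.13 (adjusted p = 0.0387). With 1 array left out, Skil passed only in the fits without control replicate 1 or 5 (adjusted p of at most 0.0852 in the others). Smad3 passed only in those without knockout replicate 3 or 4 or control replicate 1 (at most 0.0971 in the others). The median of the list was 0.32, and 11 of the 13 genes were above 0. Before adjustment, 7 of the 13 were under 0.05 by limma, against 13.6% of all genes.

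Of 18 dissociation and immediate early genes, Nr4a1, an orphan nuclear receptor induced within minutes of a stimulus, rose (1.42 ± 0.26, adjusted p = 0.0156 by limma), and 17 did not pass. Nr4a1 no longer passed without both knockout arrays 1 and 2 (adjusted p = 0.113) or with the mean of this list, which holds it, as a covariate (adjusted p = 0.10). The list mean was 7.70 and 7.72 in knockout replicates 1 and 2 and 7.15 to 7.30 in the other 3, against 6.74 to 7.64 in the controls. Klf6 and, among the knockout arrays, Klf10 were also highest in replicates 1 and 2. With this list mean as a covariate, Klf6 was at 0.23 ± 0.15 and Klf4 at 0.23 ± 0.20, neither past the threshold.

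The rest of the family and its relatives gave no call either. Of 7 other KLF genes 0 passed by limma, and 1 was under 0.05 before adjustment (13.6% of all genes). All 7 were below 0, as were 55.2% of all genes. The smallest p belonged to Klf16 (-0.23 ± 0.10, adjusted p = 0.360), another SIN3-dependent repressor, and Klf1, the erythroid factor (-0.24 ± 0.11, adjusted p = 0.399). Only 3 of these 7 were above the array median in every array. Of 8 SP factors, the sister family with the same type of zinc fingers, 0 passed, 1 was under 0.05 before adjustment, and the smallest p belonged to Sp3 (-0.26 ± 0.11, adjusted p = 0.330) and Sp5 (-0.63 ± 0.34, adjusted p = 0.470), which was at -0.25 without control replicate 1. Of 12 cofactors and ubiquitin ligases that act with or on KLF proteins, 0 passed. Against 13.6% of all genes, 2 of the 12 were under 0.05 before adjustment. These were the acetyltransferase gene Kat2b (-0.29 ± 0.12, adjusted p = 0.319) and the deacetylase gene Hdac2 (0.27 ± 0.12, adjusted p = 0.365).

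**Figure D4:**
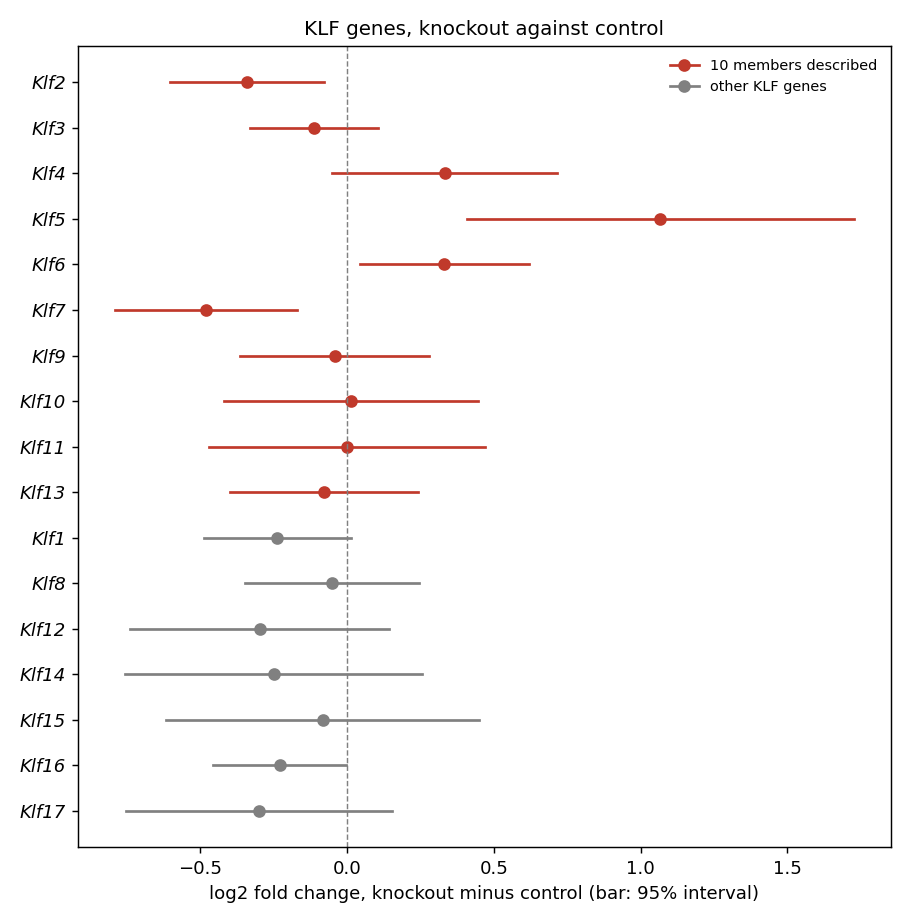
Log2 fold change, knockout minus control (x axis, log2 units), with its 95% interval from limma for the 10 Krüppel-like factor genes described (red) and the 7 other KLF genes (grey). The intervals of Klf2, Klf5, Klf6, Klf7 and Klf16 lie to one side of 0 before adjustment for the number of genes, and Klf5 has the widest.

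Once each group's mean had been subtracted, members paired up in their course over the 10 arrays. This is given as a description, since all genes read on an array share its preparation and its pool of mice. Over all 10 arrays, Klf7 with Klf13 were most alike of the 45 pairs (Pearson's r = 0.838, and 0.839 without control replicate 1), followed by Klf5 with Klf6 (0.819 and 0.816) and Klf2 with Klf3 (0.792 and 0.890). Klf5 and Klf13 were most opposed there (-0.747 and -0.782). The order of the pairs rested on control replicate 1, since without it Klf9 with Klf13 (0.930, from 0.550) and Klf7 with Klf9 (0.896, from 0.409) were the most alike and Klf5 with Klf9 the most opposed (-0.796, from -0.651). For Klf9 and Klf10 the sign depended on control replicate 1 (0.462 with it, -0.456 without).

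Among all genes above the median level, the same measure over the 10 arrays put Pkhd1 (0.977), which encodes the bile duct protein fibrocystin, and Mme (0.974), a membrane metallopeptidase, closest to Klf5. Both rose in the knockout, Pkhd1 by 1.96 ± 0.44 and Mme by 2.21 ± 0.31 on the log2 scale (adjusted p = 0.0459 and 0.00341 by limma). Pkhd1 passed only without knockout replicate 5 when 1 array was left out (adjusted p of at most 0.117 in the other fits). Closest to Klf2 were Setd2 (0.909) and Map3k10 (0.884), to Klf3 Dnm1l (0.865) and Tceanc2 (0.861), to Klf4 Pan3 (0.969) and Smg6 (0.955), and to Klf6 Rps18-ps6 (0.979) and Crlf3 (0.949). Klf7 was closest to Acap3 (0.988) and Dab2ip (0.953), Klf9 to Asap2 (0.980) and Apbb2 (0.980), and Klf10 to Nob1 (0.985) and Ttll5 (0.975). Klf11 was closest to Kctd10 (0.960) and Batf2 (0.951), and Klf13 to Masp1 (0.957) and Exosc2 (0.951). Each is the highest value found among many genes over few arrays, and none of the genes named here besides Pkhd1 and Mme passed the test between groups.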

How the data were processed

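Biotin-labelled RNA of 10 samples was measured on Affymetrix arrays of 1 colour. The deposited values are on a log2 scale, made by the authors with RMA (background correction, quantile normalization, summarization per gene), per the submitters' processing notes; neither a version nor probe locations or a genome build were given. Every array had a median of 3.71, and no further normalization was applied. Detection calls were not used here, so no gene is called absent.

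Of 25428 probe sets, 24705 carried 1 symbol in the platform annotation and 723 were unnamed here; 1 duplicate was dropped for the brighter probe set, leaving 24704 genes. Groups were compared with limma 3.58.1 in R 4.3.3 (lmFit and eBayes, two-sided, no covariate), with Benjamini-Hochberg adjustment over all genes, a threshold of 0.05 and 95% intervals. The procedure was tested on simulated data. Precision is limited by the 5 arrays of each group. The members and the 20 gene lists were chosen with earlier results of these data known, and 12 list entries were not measured here. Outside the members and the cell type markers, a list gives by name up to 4 genes past the threshold. With none past it, the 2 of smallest p are named. Of the markers, only Ebf1 and Jchain, which passed, and Epcam are named. Other names from the lists are said to be chosen after their values were seen. The alternatives left out arrays, added the replicate number or a marker mean, weighted arrays, changed the variance prior, dropped dim genes or kept unnamed probe sets. The labels do not say whether replicate numbers pair the samples. Deviations of same-numbered arrays correlated at -0.165 to 0.039 across genes, which does not settle it.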

Additional observations from a re-analysis of the deposited data

Results flagged for a closer look

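Klf9 in control replicate 1 read 7.20, below the other 4 controls, of which the nearest was at 7.69. The gap was 0.872 of the range of the controls. A gap above 0.71 of the range arises by chance in about 1 of 20 groups of this size, and 22 groups were looked at (10 members and Gata4, in 2 groups each). Control replicate 1 is also the array that correlated least with the others.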

How the results depend on the processing

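Over the 20 alternatives, the 10 members gave 200 values, of which 169 kept their direction and their side of the threshold, 29 changed sign and 2 came to pass, both Klf5. The number of members past the threshold was 0 to 1 with 1 array left out, 1 with array weights, and 0 with the replicate number as a block. Over all genes, 529 passed in the main comparison, 287 to 737 with 1 array left out, 275 with the replicate block, 1070 with array weights, 188 with the dissociation list mean, 60 with the cholangiocyte list mean, 0 with the neutrophil and monocyte list mean (which did not overlap between the groups) and 171 without both knockout arrays 1 and 2, a choice made after seeing the data. The replicate block changed the call of no member; under it the adjusted p (limma) was 0.0654 for S1pr1, 0.0978 for Skil, 0.0955 for Smad3 and 0.0536 for Nr4a1, which no longer passed, and 0.0255 for Edn1, which came to pass. The other 24 genes named gave 479 values, of which 390 kept direction and side, 73 no longer passed, 5 came to pass and 11 changed sign. No longer passing were 13 of 20 values for Skil, 13 for Pkhd1, 12 for Sele, 12 for Smad3, 8 for Bhlhe40, 7 for S1pr1, 5 for Nr4a1, 2 for Mme and 1 for Cdkn1a.

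The log2 fold changes that changed sign did not pass the threshold before or after. With 1 array left out, Klf9 ranged from -0.15 to 0.010, Klf10 from -0.18 to 0.11 and Klf11 from -0.17 to 0.18. Array weights gave -0.17 for Klf10 and 0.13 for Klf11. The dissociation list mean gave 0.0044 for Klf9, -0.090 for Klf10, 0.064 for Klf11 and 0.056 for Klf13. The neutrophil and monocyte list mean gave 0.076 for Klf3, -0.046 for Klf10, 0.28 for Klf11, 0.12 for Klf13, 0.038 for Sp3, 0.12 for Sp5, -0.079 for Hdac2, -0.39 for Edn1 and 0.049 for Nos3. The cholangiocyte list mean gave -0.039 for Klf5, 0.23 for Klf9, -0.19 for Klf10, 0.091 for Klf11, 0.32 for Klf13, 0.16 for Gata4, 0.018 for Map3k3, -0.082 for F3, 0.10 for Nos3 and -0.076 for Epcam. Without both knockout arrays 1 and 2, Klf9 was at 0.10, Klf10 at -0.081, Klf11 at 0.058, Klf13 at 0.087 and Gata4 at 0.032. The cause was not tested. Without control replicate 1, the correlations that define the most alike genes lay between 0.862 and 0.994, and 9 of the 20 genes stayed among the closest 2. With 5 arrays a group, limited precision leaves wide intervals around most members.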
